A study of Rattus norvegicus and Mus musculus with 18 samples.

Results

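The immediate early AP-1 and Egr genes were compared between the epidermis and the dermis of healing mouse skin wounds. They were 10 genes taken by symbol: *Fos*, *Fosb*, *Fosl1*, *Jun*, *Junb*, *Jund*, *Atf3*, *Egr1*, *Ier2* and *Nr4a1*. All 10 were found among the 49548 gene rows of the mouse table, and all 10 were among the 15982 genes tested after a filter on low values.

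The mouse libraries were 3 of wound dermis and 3 of wound epidermis, taken from adult animals 1 day after the scab had come off. The study's description ties this stage to new hair follicles in mice. RNA of whole tissue was copied into full-length cDNA and amplified by SMART-seq2, and values were deposited as TPM (transcripts per 1000000 transcripts of the library, corrected for gene length). The sources used here give no strain, sex or genotype, and no unwounded mouse skin is among the libraries used, so every difference below is between the tissues of a wound and none is a response to wounding. Whether the 3 libraries of a tissue stand for 3 animals is not said in the labels. The p-values therefore refer only to the spread seen between libraries, which may be technical.

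Immediate early genes are switched on within minutes of a growth factor, stress or injury signal by transcription factors that the cell already holds, and many of their mRNAs are short-lived. Fos and Jun proteins join through a leucine zipper into AP-1 dimers that bind DNA through a basic region. Jun proteins can also pair with each other, whereas Fos proteins need a partner such as a Jun protein. In skin, AP-1 is known for its part in keratinocyte differentiation and in the wound response, and Egr1 is a zinc finger factor induced by the same serum and MAP kinase signals.

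The tissue labels were checked against marker genes. Fibroblast markers summed to 10.5 to 108 TPM in epidermis and to 44857 to 69567 TPM in dermis, and all 8 were lower in epidermis. Suprabasal keratinocyte markers summed to 35802 to 84349 TPM in epidermis and to 307 to 13488 TPM in dermis. By keratinocyte markers, wound dermis replicate 2 stood apart from the other dermis libraries, because its median basal keratinocyte marker reached 45.0% of the epidermis mean. That share was 16.7% in replicate 1 and 3.51% in replicate 3. Of the 8 basal markers, 5 were higher in epidermis and 3 did not pass the test, and the median includes all 8. Of those 3, *Itga6* and *Itgb4* overlapped between the tissues, and *Dst* was higher in every dermis library (means 41.8 against 23.5 TPM). Endothelial, smooth muscle, macrophage and mast cell markers were all lower in epidermis, and adipocyte markers summed to at most 0.61 TPM. Dermis replicate 3 also differed in make-up from dermis replicates 1 and 2. It had the highest sums of macrophage (1185 against 797 and 682 TPM), mast cell (563 against 315 and 179) and skeletal muscle markers (45.1 against 11.8 and 8.67). Its endothelial (258 against 397 and 310 TPM) and smooth muscle sums (3643 against 7368 and 5597) were the lowest. Neutrophil markers were mixed. Of 7, *Cxcr2* was higher in epidermis (29.2 against 11.3 TPM; limma adjusted p = 0.0014), *Csf3r* was lower (0.07 against 8.55 TPM; limma adjusted p = 0.00010) and the other 5 were too low to test, with *Ly6g* and *Elane* at 0 in every library. In bulk tissue, fewer cells of a type and less RNA per cell cannot be told apart. Libraries held 13117 to 14012 genes at 1 TPM or more in epidermis and 15958 to 16257 in dermis, and the sequencing depth behind a TPM value is unknown.

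The basic region is what makes 7 of the genes a family, and its coding sequence is shown because it is the DNA-binding stretch that they share. The stretches below are 63 bases, code for 21 residues, and are read 5′ to 3′ on the coding strand of the GENCODE M21 transcripts (GRCm38/mm10). Capitals mark the 21 bases that are identical in all 7 genes.
Fos: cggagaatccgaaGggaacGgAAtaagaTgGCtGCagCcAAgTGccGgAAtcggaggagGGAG
Fosb: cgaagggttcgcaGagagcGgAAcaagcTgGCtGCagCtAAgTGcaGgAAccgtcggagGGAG
Fosl1: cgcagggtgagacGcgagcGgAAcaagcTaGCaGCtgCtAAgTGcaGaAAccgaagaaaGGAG
Jun: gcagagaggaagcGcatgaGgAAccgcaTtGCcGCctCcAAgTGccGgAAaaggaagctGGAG
Junb: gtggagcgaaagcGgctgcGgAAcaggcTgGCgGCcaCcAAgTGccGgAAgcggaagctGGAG
Jund: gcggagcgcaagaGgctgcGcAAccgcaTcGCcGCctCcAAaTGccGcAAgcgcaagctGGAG
Atf3: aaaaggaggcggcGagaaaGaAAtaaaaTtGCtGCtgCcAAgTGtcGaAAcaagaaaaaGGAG

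The stretches lie at chr12:85475616-85475678 (+) for *Fos*, chr7:19306580-19306642 (-) for *Fosb*, chr19:5454437-5454499 (+) for *Fosl1*, chr4:95050438-95050500 (-) for *Jun*, chr8:84977566-84977628 (-) for *Junb*, chr8:70699850-70699912 (+) for *Jund* and chr1:191172396-191172458 (-) for *Atf3*. Each falls within 1 coding exon, which is exon 3 in *Fos*, *Fosb*, *Fosl1* and *Atf3* and the single exon of *Jun*, *Junb* and *Jund*. *Fos* and *Fosb* encode the same residue at 19 of the 21 positions, and *Jun* and *Jund* at 20 of 21. *Fos* and *Jun* share 10 of 21. *Atf3* shared more residues with *Fos* (15) than with *Jun* (12). The longest run of identical bases between any pair was 14, in *Fosb* and *Fosl1*. No window of 43 bases, the length of the shorter reads, in transcripts of any of the 10 genes lies in another of them.

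Overlap with genes on the other strand was the larger source of uncertainty, because the sources used here do not state whether counting used strand. Of the 43-base windows of *Fosl1* transcripts, 53.3% (1083 of 2031) also lie in *Ccdc85b*, a gene on the opposite strand, and of those of *Jund*, 49.0% (796 of 1626) lie in the antisense transcript *Gm11175*. The share was 6.04% for *Jun*, with *Junos*, and 6.04% for *Junb*, with *Prdx2*. Reads from such a stretch cannot be told apart without strand, so the levels of *Fosl1* and *Jund* are uncertain. The shares of windows do not give the size of that uncertainty, which was not tested. *Gm11175* was listed at 0.30 TPM in epidermis replicate 1 and at 0 in the other 5 libraries. *Ccdc85b* was lower in epidermis, at 7.63 to 9.31 TPM, than in dermis, at 19.6 to 22.5 TPM. No window of *Fos*, *Fosb*, *Egr1*, *Atf3*, *Ier2* or *Nr4a1* lies in another gene.

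*Junb*, *Ier2*, *Jun* and *Fosl1* were higher in wound epidermis than in wound dermis, and *Nr4a1* was lower. By ratio of mean TPM the higher genes stood 2.18-fold (*Jun*) to 5.41-fold (*Fosl1*) above dermis, and *Nr4a1* stood at 0.27 of its dermis level. *Fos*, *Fosb*, *Jund*, *Egr1* and *Atf3* had higher means in epidermis, by 1.49-fold (*Atf3*) to 1.91-fold (*Egr1*), but did not pass the test. The test was limma's moderated test on log2(TPM + 1), with Benjamini-Hochberg adjustment over the 15982 genes and a threshold of 0.05. On that scale a fold change understates the change of a gene near 1 TPM.

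The 4 genes higher of 10 stand against a background of 17.0% of all tested genes called higher. The 1 lower of 10 stands against 39.3% of all tested genes called lower. The libraries of the tissues did not overlap, with epidermis above, for 5 of the 10 genes, namely the 4 called higher and *Jund*, against 20.8% of all tested genes. They did not overlap with dermis above for *Nr4a1* alone, against 45.3%. The median log2 difference of the 10 genes was 0.89, and that of all tested genes was -0.42. A gene reaching 1 TPM only in the 3 libraries of 1 tissue passes the filter and cannot overlap. All 10 genes were above 1 TPM in every epidermis library, so none entered through dermis alone. Leaving out a dermis library removes genes that entered that way. Then 13823 to 13855 genes were tested, 3256 to 3751 were lower, and the median was -0.28 to -0.25. Without dermis replicate 1, 7 of the 10 genes were called higher, with *Fos*, *Fosb*, *Jund* and *Egr1* added and *Fosl1* lost, against 14.5% of the 13855 genes tested there.

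**Figure D1:**
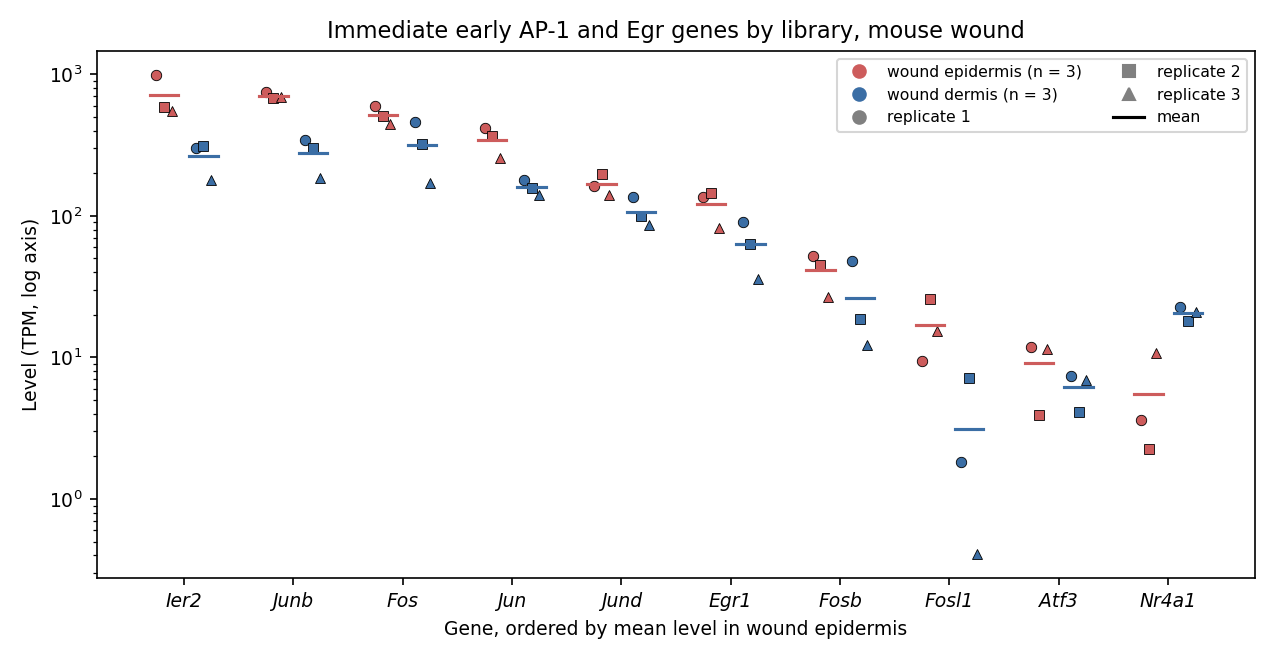
Level of each gene in TPM (log axis) in each wound epidermis library (red) and wound dermis library (blue), with replicates 1 to 3 as circle, square and triangle and group means as lines. *Jun*, *Junb*, *Jund*, *Ier2* and *Fosl1* have all 3 epidermis libraries above all 3 dermis libraries, *Nr4a1* has the reverse, and the other 4 genes overlap.

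Among the genes of the Jun proteins, the usual AP-1 partners of Fos proteins, *Junb* (chr8:84974484-84978718, minus strand) had the firmest difference. It is known both as an AP-1 subunit and as a brake on Jun activity. *Junb* stood at 746, 677 and 695 TPM in epidermis replicates 1 to 3 and at 343, 303 and 184 TPM in dermis replicates 1 to 3. The lowest epidermis library was thus above the highest dermis library, and the epidermis libraries lay close together. The means were 706 ± 36.0 TPM (SD, n = 3) and 277 ± 82.8 TPM (SD, n = 3), a log2 difference of 1.40 ± 0.27 (SE; 95% interval 0.75 to 2.04; limma adjusted p = 0.0043). *Prdx2*, which shares a stretch with *Junb*, ranged from 319 to 488 TPM in epidermis and from 195 to 303 TPM in dermis.

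*Jun* (chr4:95049034-95052222, minus strand) encodes the founding subunit, whose activity is raised by phosphorylation by JNK kinases. Its epidermis libraries held 417, 364 and 257 TPM and its dermis libraries 180.3, 156 and 139.9 TPM, with no overlap. *Jun* rose by 1.10 ± 0.25 on the log2 scale (SE; 95% interval 0.52 to 1.67; limma adjusted p = 0.0074), from 159 ± 20.4 TPM (SD, n = 3) in dermis to 346 ± 81.9 TPM (SD, n = 3) in epidermis. Its dermis libraries were among the tightest of the group.

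*Jund* (chr8:70698949-70700616, plus strand) is the Jun gene that is least dependent on a stimulus in many cell types. It stood at 163, 198 and 141 TPM in epidermis and at 135, 99.3 and 85.8 TPM in dermis. The tissues did not overlap, but the lowest epidermis and the highest dermis library were close. The log2 difference of 0.65 ± 0.24 (SE; 95% interval 0.08 to 1.23) did not pass the test (limma adjusted p = 0.054), with means of 167 ± 28.6 and 107 ± 25.5 TPM (SD, n = 3 each). When dermis replicate 1 was left out it was 0.84 (limma adjusted p = 0.042), and over all alternatives its adjusted p ran from 0.013 to 0.18.

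Among the Fos proteins, *Fos* itself (chr12:85473890-85477273, plus strand), the classic rapid-response subunit, was abundant in both tissues. It stood at 600.4, 504 and 448 TPM in epidermis and at 458, 323 and 169.6 TPM in dermis. Dermis replicate 1 was above epidermis replicate 3, so the tissues overlapped, and the dermis libraries spread over 2.70-fold. The means were 517 ± 77.3 and 317 ± 144 TPM (SD, n = 3 each), and the log2 difference was 0.81 ± 0.37 (SE; 95% interval -0.07 to 1.68; limma adjusted p = 0.10). The difference without dermis replicate 1 was 1.13 (limma adjusted p = 0.046) and without dermis replicate 3 it was 0.42, and the adjusted p ran from 0.026 to 0.35 over all alternatives. With such an interval, no equality of *Fos* between the tissues is shown.

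*Fosb* (chr7:19302696-19310051, minus strand) encodes a close relative of Fos. It stood at 52.1, 44.7 and 26.8 TPM in epidermis and at 48.2, 18.8 and 12.2 TPM in dermis. Its dermis replicate 1 was above all but 1 of the epidermis libraries. The log2 difference was 0.80 ± 0.50 (SE; 95% interval -0.38 to 1.97; limma adjusted p = 0.21). Without dermis replicate 1 it was 1.33 (limma adjusted p = 0.033) and without dermis replicate 3 it was 0.38, with an adjusted p of 0.033 to 0.54 over all alternatives.

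*Fosl1* (chr19:5447547-5455946, plus strand) encodes Fra-1, a Fos relative without the strong activation domain of Fos that is known from migrating and wound-edge keratinocytes. It was low but had the largest fold among the 10 genes. *Fosl1* stood at 9.40, 26.0 and 15.5 TPM in epidermis and at 1.84, 7.16 and 0.41 TPM in dermis. No library overlapped, and dermis replicate 2, the library with the most keratinocyte marker RNA, was the highest of the dermis. *Fosl1* rose by 2.38 ± 0.65 on the log2 scale (SE; 95% interval 0.85 to 3.91; limma adjusted p = 0.017), with means of 17 ± 8.41 and 3.14 ± 3.56 TPM (SD, n = 3 each). The difference was 3.06 without dermis replicate 2, whereas without dermis replicate 1 it was 2.30 (limma adjusted p = 0.064) and without epidermis replicate 2 it was 2.03 (limma adjusted p = 0.061). Over all alternatives the adjusted p of *Fosl1* ran from 0.0023 to 0.064.

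*Fosl2*, the Fos relative outside the 10 genes, did not differ beyond its spread. It had 32.8 ± 2.70 TPM in epidermis against 34.4 ± 9.11 TPM in dermis (SD, n = 3 each). Its log2 difference was -0.03 ± 0.24 (SE; 95% interval -0.61 to 0.54; limma adjusted p = 0.91) and changed sign with the scaling.

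Because TPM is corrected for length, levels can be summed over a family. The Fos family (*Fos*, *Fosb*, *Fosl1* and *Fosl2*) had summed levels of 608 ± 88.4 TPM in epidermis against 381 ± 166 TPM in dermis (SD over 3 libraries each), a ratio of 1.60. The Jun family summed to 1219 ± 118 and 542 ± 125 TPM (SD, n = 3 each), a ratio of 2.25. Leaving out dermis replicate 1 gave ratios of 2.06 and 2.52, and without dermis replicate 3 they were 1.32 and 2.0. Jun-family transcripts thus outnumbered Fos-family transcripts in every library.

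The balance of the families varied little in epidermis and more in dermis. There were 0.525, 0.491 and 0.475 Fos-family transcripts per Jun-family transcript in epidermis replicates 1 to 3, and 0.835, 0.668 and 0.533 in dermis replicates 1 to 3. All 3 dermis ratios were above all 3 epidermis ratios. *Fos* made up 77.6% to 86.5% of the Fos family over the 6 libraries. *Junb* made up 54.6% to 63.6% of the Jun family in epidermis and 44.9% to 54.3% in dermis, and *Jund* 12.3% to 16.0% in epidermis and 17.8% to 20.9% in dermis. The relative share of *Jund* was thus higher in each dermis library although its level was lower. These shares are a description with no test.

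**Figure D2:**
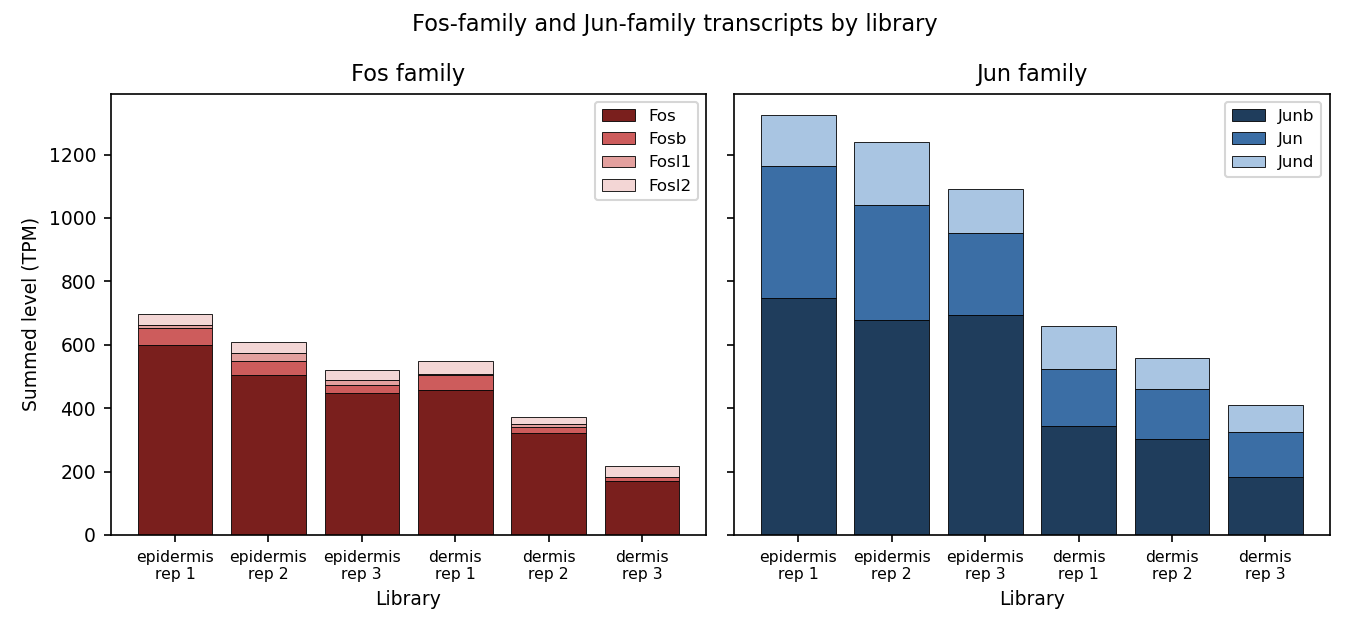
Summed TPM of the Fos family (left, *Fos*, *Fosb*, *Fosl1*, *Fosl2*) and the Jun family (right, *Junb*, *Jun*, *Jund*), with a stacked bar for each library and shared axes. The Jun-family bars stand at 1093 TPM or more in epidermis and at 658.5 TPM or less in dermis, while the Fos-family bar of dermis replicate 1 (550.0 TPM) is taller than that of epidermis replicate 3 (519.5 TPM).

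*Atf3* (chr1:191170296-191218039, minus strand) encodes a stress-induced bZIP protein that can act as a repressor. It stood at 11.9, 3.94 and 11.5 TPM in epidermis and at 7.42, 4.12 and 6.89 TPM in dermis. Replicate 2 was the lowest library of both tissues, and the ranges overlapped. The log2 difference was 0.41 ± 0.42 (SE; 95% interval -0.58 to 1.40; limma adjusted p = 0.43), and without epidermis replicate 2 it was 0.87 (limma adjusted p = 0.046), within a range of 0.043 to 0.78 over all alternatives.

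*Egr1* (chr18:34859823-34864984, plus strand) encodes a zinc finger factor that binds GC-rich promoters. It stood at 135, 144 and 82.7 TPM in epidermis and at 90.8, 62.9 and 35.9 TPM in dermis. Dermis replicate 1 was above epidermis replicate 3, as for *Fos*, and otherwise epidermis was higher. The log2 difference was 0.98 ± 0.38 (SE; 95% interval 0.08 to 1.87; limma adjusted p = 0.062), with means of 121 ± 33.2 and 63.2 ± 27.5 TPM (SD, n = 3 each). Without dermis replicate 1 it was 1.28 (limma adjusted p = 0.039), without epidermis replicate 3 it was 1.23 (limma adjusted p = 0.040) and without dermis replicate 3 it was 0.63, and the adjusted p ran from 0.021 to 0.18 over all alternatives. Of its relatives, *Egr3* was low and rose by 2.34 ± 0.38 on the log2 scale (limma adjusted p = 0.0019), from 0.82 ± 1.0 to 7.48 ± 1.30 TPM (SD, n = 3 each). *Egr2* stood at 4.23 ± 0.99 and 3.61 ± 0.65 TPM (SD, n = 3 each; limma adjusted p = 0.53), and *Egr4* was at or below 0.11 TPM in every library. The genes of the Egr co-repressors, *Nab1* and *Nab2*, had log2 differences of -0.03 and -0.29 (limma adjusted p = 0.93 and 0.30), and both changed sign with the scaling.

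*Ier2* (chr8:84661331-84662852, minus strand) encodes a small nuclear protein of the immediate early response and had, with *Junb*, the highest mean of the 10 genes in epidermis. It stood at 992, 591 and 547 TPM in epidermis and at 302, 310.2 and 179 TPM in dermis. The tissues were far apart, with the lowest epidermis library above the highest dermis library. *Ier2* rose by 1.42 ± 0.33 on the log2 scale (SE; 95% interval 0.64 to 2.19; limma adjusted p = 0.0090), from 264 ± 73.3 to 710.2 ± 245 TPM (SD, n = 3 each). Of the genes named after the same response, *Ier3* (1.94; limma adjusted p = 0.0089) and *Ier5* (1.16; limma adjusted p = 0.0054) rose on the log2 scale, and *Ier5l*, at 1.33 ± 0.44 and 2.03 ± 0.58 TPM (SD, n = 3 each), did not pass the test (limma adjusted p = 0.21).

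*Nr4a1* (chr15:101254269-101274795, plus strand) encodes Nur77, an orphan nuclear receptor induced by many of the same stimuli and known in macrophages, T cells and endothelium. It was the only gene of the 10 with the higher level in dermis. *Nr4a1* stood at 3.60, 2.26 and 10.7 TPM in epidermis and at 22.7, 18.0 and 20.8 TPM in dermis. Every dermis library was above every epidermis library, and the dermis libraries lay within 1.26-fold of each other while those of epidermis spread over 4.75-fold. *Nr4a1* fell by 1.93 ± 0.45 on the log2 scale (SE; limma adjusted p = 0.0092), with means of 5.53 ± 4.56 and 20.5 ± 2.35 TPM (SD, n = 3 each). Without epidermis replicate 3 it fell by 2.47, and without dermis replicate 2 by 2.02. Its relative *Nr4a2* fell by 2.37 ± 0.25 (SE; limma adjusted p = 0.00027), from 9.91 ± 3.03 to 1.06 ± 0.15 TPM (SD, n = 3 each). *Nr4a3* was at 0.17 to 0.28 TPM in epidermis and 0.41 to 1.01 TPM in dermis and was not tested. Beside these values, macrophage markers summed to 56.5 to 75.5 TPM in epidermis and 682 to 1185 TPM in dermis, with all 7 of 7 lower in epidermis, and endothelial markers summed to 4.07 to 10.2 and 258 to 397 TPM, with all 7 of 7 lower. T cell markers summed to 13.1 to 34.8 and 43.3 to 60.9 TPM, with 2 of 6 lower. The part of these cells in the *Nr4a1* level was not tested.

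The order of the genes by level differed between the tissues. In epidermis it ran *Ier2*, *Junb*, *Fos*, *Jun*, *Jund*, *Egr1*, *Fosb*, *Fosl1*, *Atf3* and *Nr4a1*. *Ier2* and *Junb* overlapped, as did *Jund* with *Egr1*, *Fosl1* with *Atf3* and *Atf3* with *Nr4a1*, so the order within those pairs is not shown beyond the spread. In dermis it ran *Fos*, *Junb*, *Ier2*, *Jun*, *Jund*, *Egr1*, *Fosb*, *Nr4a1*, *Atf3* and *Fosl1*, and there only *Jun* over *Jund* and *Nr4a1* over *Atf3* were neighbours without overlap. *Ier2* ranked 188 and *Junb* 190 of the 13737 genes averaging 1 TPM or more in epidermis. *Fos* ranked 289 there and 374 of 16351 in dermis.

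Because TPM is a share, the level of each gene depends on the sum of the rest, and another scaling moved the whole distribution. The median log2 difference of all tested genes was -0.42 on TPM as deposited. It was -0.03 with median-of-ratios scaling and 0.08 with quantile normalization. Genes higher in epidermis made up 30.2%, 47.2% and 52.8% of all calls in that order. Each of the 10 genes kept its sign under both scalings. After median-of-ratios scaling 7 of the 10 were called higher, against 27.2% of all tested genes, with *Fos* (1.28; limma adjusted p = 0.026), *Jund* (1.13; limma adjusted p = 0.013) and *Egr1* (1.45; limma adjusted p = 0.023) added. After quantile normalization 5 were called higher, against 29.4% of all tested genes, with *Atf3* (1.03; limma adjusted p = 0.043) added. Relative to the median of all genes under each scaling, *Junb* stood at 1.82, 1.90 and 0.98, *Fos* at 1.23, 1.31 and 0.42, and *Nr4a1* at -1.51, -1.49 and -1.50 on the log2 scale.

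**Figure D3:**
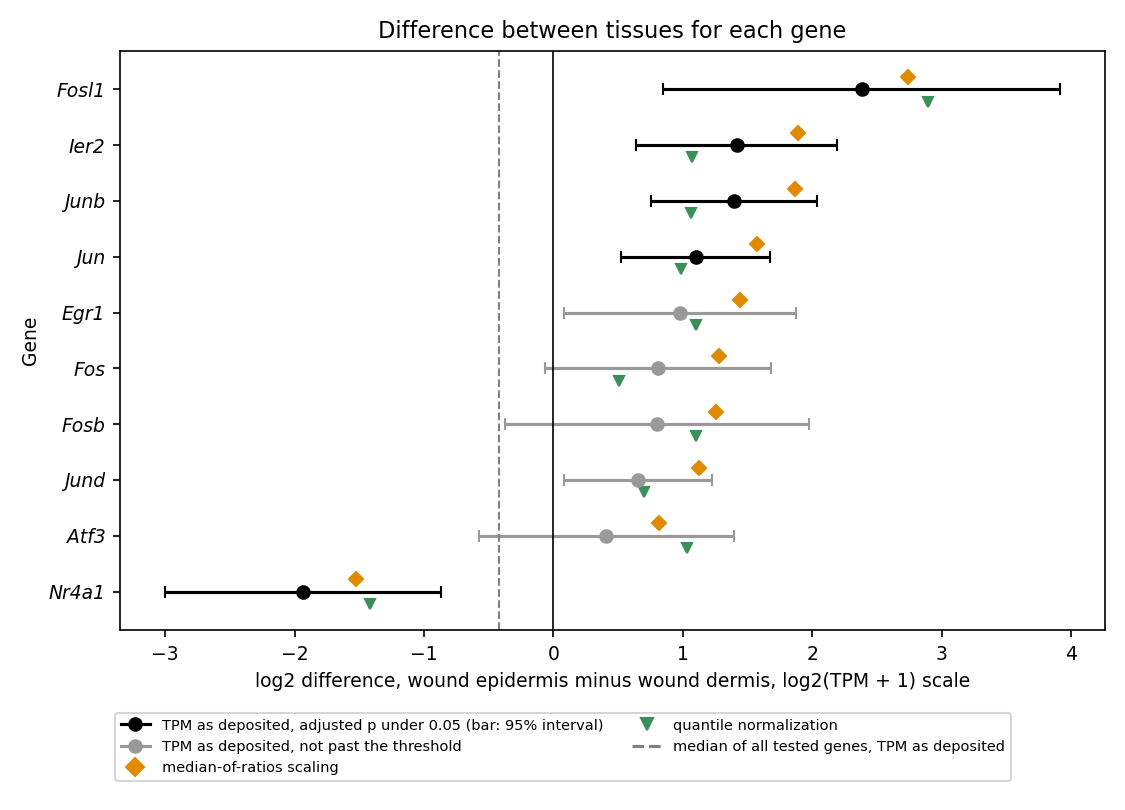
Log2 difference of each gene (wound epidermis minus wound dermis, log2(TPM + 1) scale) with its 95% interval from limma, black where past the threshold and grey where not, with the median-of-ratios (diamond) and quantile (triangle) values beside it and the median of all tested genes dashed. All values of 9 genes lie right of 0 and those of *Nr4a1* lie left of it, whereas the intervals of *Fos*, *Fosb* and *Atf3* cross 0.

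By their median, the 10 genes varied more between libraries of a tissue than the typical well-expressed gene, but this did not hold for each gene. The median SD of log2(TPM + 1) over the 10 genes was 0.46 in dermis and 0.45 in epidermis, against 0.26 and 0.28 for all genes averaging 10 TPM or more. In dermis, *Fos* (0.72, percentile 93.0), *Egr1* (0.66, percentile 92.0) and *Fosb* (0.97, percentile 95) were among the most variable genes, while *Jun* (0.18, percentile 31.5) and *Nr4a1* (0.16, percentile 25.1) were not. In epidermis, *Fosl1* (0.69, percentile 92.6) varied and *Junb* (0.07, percentile 5.5) hardly did. There *Fos* (0.21, percentile 34.9) and *Jund* (0.24, percentile 41.7) also varied less than the typical gene. *Jun*, *Egr1*, *Ier2* and *Fosb* were at percentiles 65.3 to 81.6. *Atf3* in both tissues, *Nr4a1* in epidermis and *Fosl1* in dermis averaged under 10 TPM, and the medians over the 10 genes include them.

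The spread ran the same way for most of the genes. Dermis replicate 1 was the highest dermis library for 8 of the 10 genes and replicate 3 the lowest for 8 of 10. Of the 8281 genes averaging 10 TPM or more in dermis, 23.3% were highest in replicate 1 and 27.3% lowest in replicate 3. In epidermis, replicate 1 was the highest for 6 of the 10 and replicate 3 the lowest for 6 of 10, against 25.9% and 19.8% of the 6790 genes. The genes of a library share its depth, its input and its handling, so the 10 counts are not independent.

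The dermis library with the most keratinocyte marker RNA, replicate 2, was the highest dermis library for 2 of the 10 genes. Of the 8281 genes averaging 10 TPM or more in dermis, 34.5% were highest there. With 10 genes the count is not far from that share, and nothing is drawn from it. As a share of the epidermis mean, *Fos* stood at 88.5%, 62.4% and 32.8% in dermis replicates 1 to 3, and *Egr1* at 75.3%, 52.2% and 29.8%. The median basal keratinocyte marker stood at 16.7%, 45.0% and 3.51%, and the median suprabasal marker at 1.12%, 21.9% and 0.515%. *Jun* stood at 52.1%, 45.1% and 40.4%. In dermis replicate 3, which held the least keratinocyte marker RNA, the 10 genes ranged from 2.42% (*Fosl1*) to 75.5% (*Atf3*) of their epidermis means, apart from *Nr4a1* at 375%. *Fosl1*, at 10.9%, 42.2% and 2.42%, and *Ier2*, at 42.5%, 43.7% and 25.3%, were the genes whose dermis libraries had the same order as the basal markers. The part of keratinocyte RNA in the dermis levels was not tested. Fibroblast markers in epidermis had medians of 0.0666%, 0.0167% and 0.188% of the dermis mean.

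**Figure D4:**
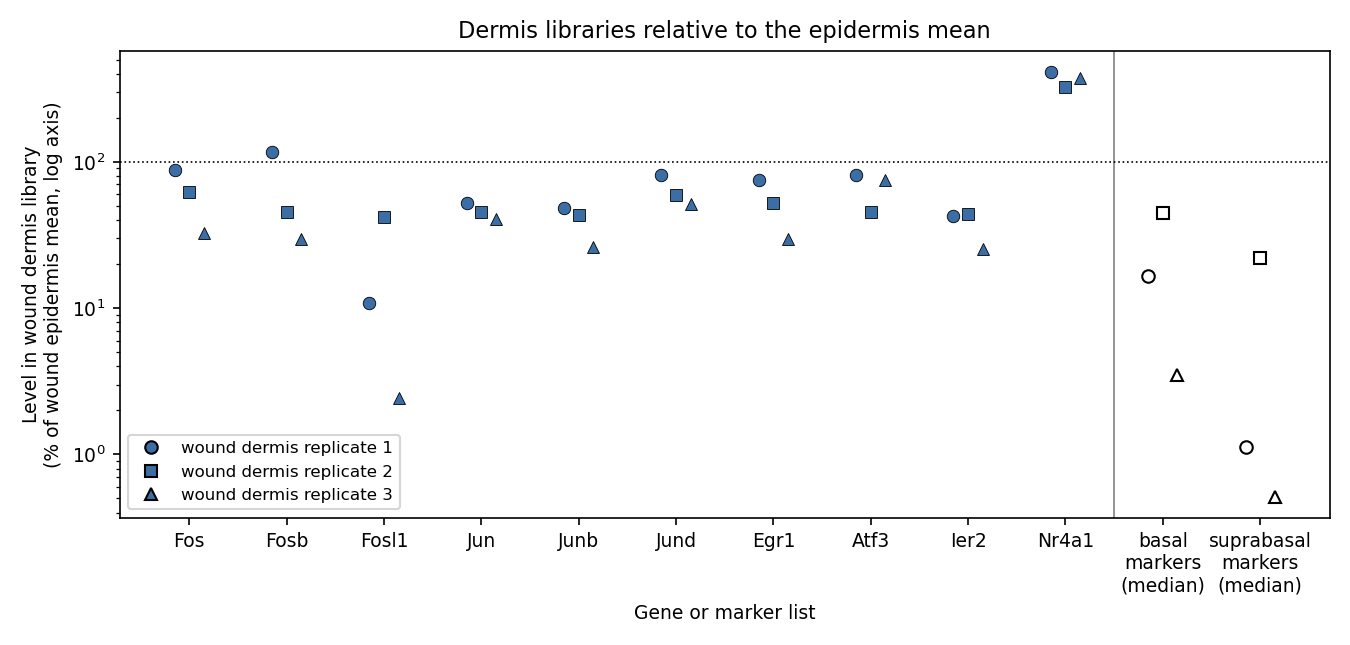
Level in each wound dermis library as a percentage of the wound epidermis mean (log axis) for the 10 genes (filled) and for the median of the basal and suprabasal keratinocyte markers (open), with replicates 1 to 3 as circle, square and triangle. *Fos*, *Fosb* and *Egr1* are highest in replicate 1 and lowest in replicate 3, whereas *Fosl1* and the keratinocyte markers peak in replicate 2, at 42.2% for *Fosl1*.

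The genes with profiles most like *Fos* over the 6 libraries were found among the 8008 genes averaging 10 TPM or more over these libraries, by the root mean square difference of centred log2(TPM + 1) values. They were *Nfkbiz* (0.194), *Dusp1* (0.196), *Prdm15* (0.198), *Egr1* (0.204) and the predicted gene *Gm26532* (0.217). *Egr1* is thus the only gene of the 10 among the 5 nearest to *Fos*. For *Jund*, the nearest were *Usp32* (0.059), *Scp2-ps2* (0.080), *Dusp11* (0.097), *Gm16222* (0.106) and *Slk* (0.112), with none of the 10 genes among them. All 6 points of a profile come from the same libraries, so likeness here is a description.

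The wider lists are read against the same backgrounds of 17.0% higher and 39.3% lower, which include genes that passed the filter through 1 tissue alone. Other immediate early regulators were mixed, with 10 of 20 tested genes higher, 3 lower and 7 not called, and a median log2 difference of 0.83. The differentiation factors *Cebpb* (2.34; limma adjusted p = 0.00042) and *Klf4* (2.28; limma adjusted p = 0.0012) and the nuclear factor *Csrnp1* (2.02; limma adjusted p = 0.00059) rose on the log2 scale. *Nr4a2*, *Klf2*, a flow-responsive endothelial factor (-2.44; limma adjusted p = 0.00070), and *Cebpd* (-1.97; limma adjusted p = 0.0051) fell. Among immediate early genes that are not transcription factors, 12 of 28 were higher and 7 lower, with a median of 0.43. *Arc* (3.84; limma adjusted p = 0.0030), *Arl4a* (1.55; limma adjusted p = 0.0026) and *Nfkbia*, the inhibitor of NF-kB (1.28; limma adjusted p = 0.0018), rose. The matricellular genes *Ccn1* (-3.32; limma adjusted p = 0.00031) and *Ccn2* (-2.91; limma adjusted p = 0.00033) and the growth arrest gene *Gadd45g* (-3.12; limma adjusted p = 6.8e-05) fell. In that list 7 genes were higher without dermis replicate 3 and 3 were lower without dermis replicate 1. *Ccn2*, near 0 in epidermis, fails the filter of 3 libraries when a dermis library is left out.

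The other bZIP genes of AP-1 and its partner families were mixed as well, with 4 of 19 higher, 9 lower and a median of -0.62. The small Maf genes *Maff* (2.57; limma adjusted p = 0.0057) and *Mafk* (0.94; limma adjusted p = 0.0066), whose proteins lack an activation domain, rose. *Mafg*, of the same kind, stood at 28.7 ± 3.42 and 37.8 ± 3.04 TPM (SD, n = 3 each), did not pass the test (-0.39; limma adjusted p = 0.11) and changed sign with median-of-ratios scaling. *Crem* (-1.91; limma adjusted p = 0.00029), a cAMP-responsive regulator, *Jdp2* (-1.76; limma adjusted p = 0.00019), a repressing Jun partner, and *Batf3* (-2.22; limma adjusted p = 0.00051), known from dendritic cells, fell. Without dermis replicate 1 the lower count was 4, in part because *Jdp2* and *Batf3*, near 0 in epidermis, then fail the filter of 3 libraries.

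Of the MAP kinase and serum response genes upstream of immediate early transcription, 5 of 23 were higher and 9 lower, with a median of -0.34. *Map2k4*, a kinase above JNK (1.85; limma adjusted p = 0.0022), and *Hras* (1.23; limma adjusted p = 0.0041) rose. *Elk3*, an SRF partner (-3.07; limma adjusted p = 9.7e-05), *Mapk9*, which encodes a JNK (-2.34; limma adjusted p = 0.0010), and *Mrtfb* (-1.90; limma adjusted p = 0.0045) fell. *Srf* itself, which binds the serum response elements of *Fos* and *Egr1*, stood at 2.56 ± 0.40 and 4.24 ± 0.67 TPM (SD, n = 3 each), a log2 difference of -0.56 at the edge of the threshold (limma adjusted p = 0.049, and 0.032 to 0.40 over its alternatives), and changed sign after quantile normalization. The lower count of this list was 4 without dermis replicate 1, and 5 without dermis replicate 3, epidermis replicate 1 or epidermis replicate 2.

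Feedback genes were also split, with 5 of 15 higher and 6 lower and a median of -0.29. The phosphatase genes *Dusp5* (3.48; limma adjusted p = 0.0024), *Dusp14* (3.45; limma adjusted p = 0.0031) and *Dusp16* (2.33; limma adjusted p = 0.00054) rose, while others of their family, *Dusp10* (-1.33; limma adjusted p = 0.00089) and *Dusp6* (-1.50; limma adjusted p = 0.048, and 0.011 to 0.17 over its alternatives), fell. *Spry4* (-4.00; limma adjusted p = 3.9e-05), *Spred1* (-2.16; limma adjusted p = 0.00025) and *Spry2* (-1.99; limma adjusted p = 0.00031), brakes on receptor tyrosine kinase signalling, fell as well. *Dusp6* did not pass the threshold without dermis replicate 1, 2 or 3 or without epidermis replicate 1 or 3, and its log2 difference was -0.90 without epidermis replicate 1. Without dermis replicate 1, 2 or 3 the lower count was 2. This is in part because *Spry4* and *Dusp10*, near 0 in epidermis, then fail the filter of 3 libraries. Without dermis replicate 3 the higher count was 3. Of 21 genes described as AP-1 or Egr targets, 5 were higher and 11 lower, with a median of -0.81. *Hbegf*, a keratinocyte growth factor (2.49; limma adjusted p = 0.0016), *F3*, tissue factor (2.71; limma adjusted p = 0.0027), and *Vegfa* (2.42; limma adjusted p = 0.0034) rose. The protease receptor gene *Plaur* (-4.39; limma adjusted p = 3.3e-05), the protease inhibitor *Timp1* (-5.73; limma adjusted p = 5.4e-05) and the chemokine *Ccl2* (-5.80; limma adjusted p = 0.00011) fell. These lists hold genes with strong cell type preferences, and the part of the AP-1 genes in their differences was not tested.

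Heat shock and chaperone genes, which rise with cell stress, were mixed too. Of 12, 5 were higher and 1 lower, with a median of -0.18, and without epidermis replicate 3 the lower count was 5. The inducible Hsp70 genes *Hspa1a* (3.26; limma adjusted p = 0.00018) and *Hspa1b* (2.95; limma adjusted p = 0.00036), near-identical copies whose reads may be split between them, and *Dnajb1* (1.94; limma adjusted p = 0.0019) rose, and *Dnaja1* (-2.01; limma adjusted p = 0.0028) fell. The part of tissue handling in either set of genes was not tested.

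**Figure D5:**
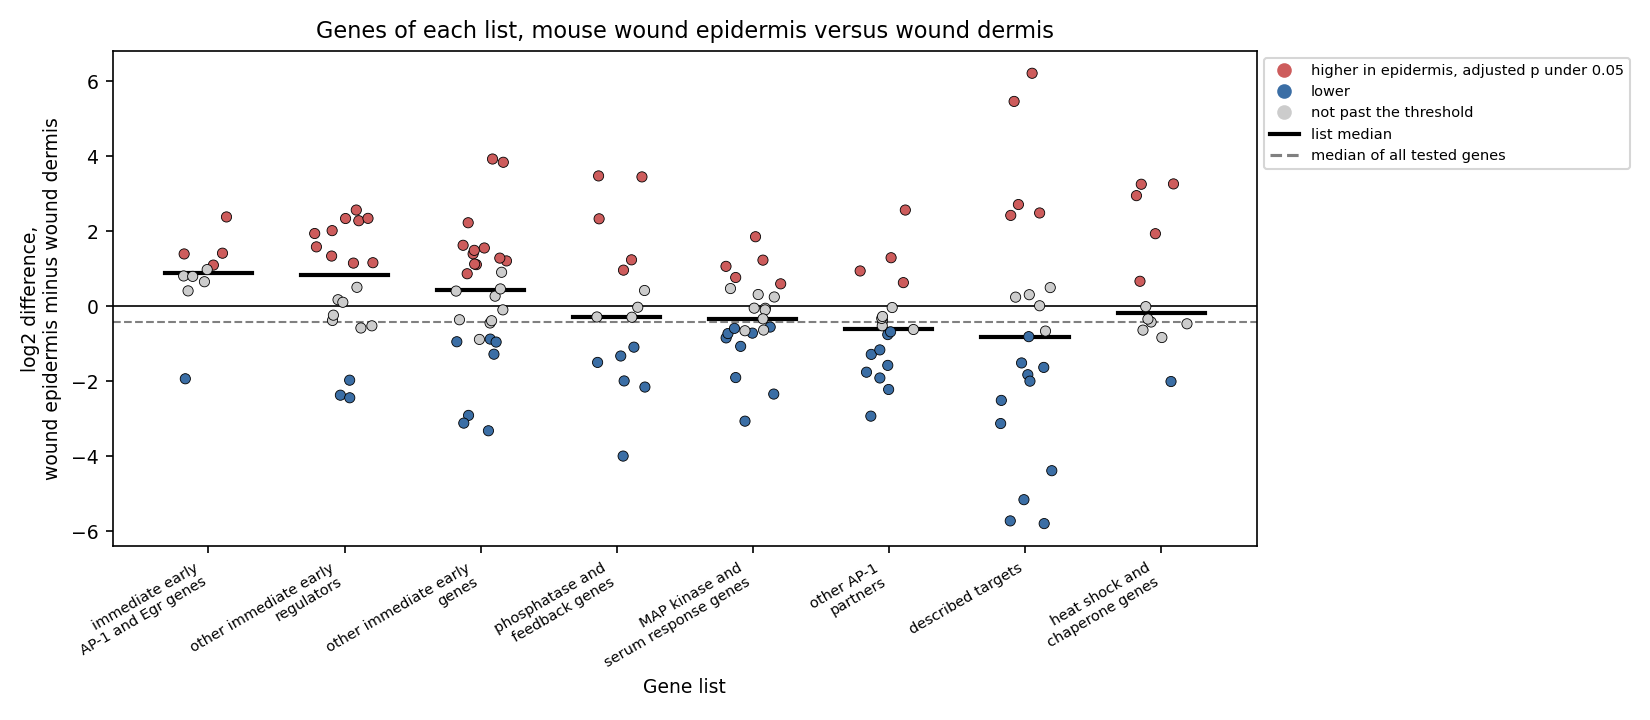
Log2 difference (wound epidermis minus wound dermis) of each tested gene of the 10 immediate early genes and of 7 wider lists, red where higher and blue where lower at an adjusted p under 0.05, with list medians as bars and the median of all tested genes dashed. The 10 genes and the other immediate early regulators have medians of 0.89 and 0.83, and all lists spread to both sides of 0.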

How the data were processed

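TPM values per gene and library were deposited by the authors. Bowtie 1.0.0 and RSEM 1.2.31 and the builds mm10 and Rnor_6.0 are named per the submitters' processing notes, with the annotation and settings not given in the sources used here. Per the labels' protocols, reads were single-end, of a longer and a shorter length, and from different RNA inputs, and which library had which is not given there. TPM keeps no read number, so depth is unknown, whole reads cannot be recovered, and no counting interval is given.

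Of 49548 mouse rows, 49289 were paired with a symbol. The 6 mouse libraries, grouped by their labels, were fitted on the log2(TPM + 1) scale by limma 3.58.1 (R 4.3.3) with the mean-variance trend. The fit held genes reaching 1 TPM in 3 or more libraries, with Benjamini-Hochberg adjustment with a threshold of 0.05. The script was tested on simulated data. The rat libraries were not used here.

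The 10 genes and all lists were chosen with earlier results of these data known, and the lists support no claim of their own. Besides the 10 genes, the text names the up to 3 genes per direction with the smallest adjusted p of each list, relatives of the 10 genes, the genes nearest to *Fos* and *Jund*, marker genes, and genes that overlap the 10. *Mafg*, *Dusp6*, *Dusp10* and *Csf3r* were added after their values were seen. Some genes that this rule takes are not reported here. Alternatives were other pseudocounts (0.1 and 0.5), no filter, a filter of 5 TPM, median-of-ratios and quantile scaling, removal of the 50 most abundant genes, no trend, a replicate block and leaving out each library. A planned promoter motif scan and protein alignment were not run, because the tables used here hold no mouse promoters or proteins. The coding stretch, read from GENCODE M21 transcripts, replaced the alignment after those tables were seen, and coordinates are 1-based mm10.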

Additional observations from a re-analysis of the deposited data

How the results depend on the processing

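All 10 genes kept their direction in each of 15 alternatives, and *Jun*, *Junb*, *Ier2* and *Nr4a1* were past the threshold in each of the 15, *Fosl1* in 13. The number of the 10 genes called higher was 4 and became 7 after median-of-ratios scaling, and leaving out a library gave 4 to 7, with 7 only without dermis replicate 1. The shares of all tested genes called higher were 17.0%, 27.2% and 12.5% to 19.4% in that order. The number of the 10 genes called lower was 1 in every alternative. Over all genes, 2721 were higher and 6275 lower; after median-of-ratios scaling and quantile normalization 4342 and 4694 were higher, and leaving out a library gave 1943 to 2675 higher and 3256 to 6406 lower, with fewer genes tested. The Fos-family ratio of 1.60 became 2.23 and the Jun-family ratio of 2.25 became 3.15 after median-of-ratios scaling, and leaving out a library gave 1.32 to 2.06 and 2.0 to 2.52. Differences that changed sign belonged to genes that did not pass the test or, for *Srf*, lay at its edge. After median-of-ratios scaling and quantile normalization the log2 difference of *Fosl2* was 0.43 and 0.26, of *Nab1* 0.43 and 0.34 and of *Nab2* 0.13 and 0.36. After quantile normalization it was 0.44 for *Ier5l* and 0.20 for *Srf*, and after median-of-ratios scaling it was 0.07 for *Mafg*. Leaving out a library gave -0.25 to 0.13 for *Fosl2* and -0.19 to 0.17 for *Nab1*. The cause of these shifts was not tested.

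Under the scalings, list counts moved by over 1.5 times for lower feedback genes (6, then 3 after quantile normalization), lower immediate early genes that are not transcription factors (7, then 3 and 4), lower MAP kinase and serum response genes (9, then 3 and 3, and 5 with no filter) and lower heat shock genes (1, then 3 after quantile normalization, and 2 with a filter of 5 TPM, without the 50 most abundant genes or with a replicate block).

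The labels give both tissues replicates 1 to 3. To compare libraries across tissues, each gene's log2(TPM + 1) value was taken as its deviation from the mean of its own tissue. Across genes, these deviations correlated at -0.135, 0.086 and 0.189 between same-numbered libraries, the last being the highest of all combinations. These are not correlations of the levels themselves. The deviations of epidermis replicate 1 correlated best with those of dermis replicate 2 (0.071). With 3 libraries a tissue, the deviations within a tissue are tied to each other, and such correlations cannot show whether the replicate numbers are pairs. The main fit did not take them as pairs. A replicate block lowered the SE from 0.50 to 0.295 for *Fosb* and from 0.38 to 0.245 for *Egr1*. Of the 10 genes, it raised the SE only for *Junb* (0.273 to 0.278) and *Jund* (0.244 to 0.25). With a replicate block, 2464 of the 15982 genes tested (15.4%) were higher and 5940 lower. Of the 10 genes, 5 were then higher and 1 lower, with *Egr1* added (limma adjusted p = 0.021). Depth is unknown and 3 libraries a tissue limit what could be detected.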
